A study of Homo sapiens with 6 samples.

Results

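The genes that encode the subunits, activators, inhibitor and assembly chaperones of the proteasome were taken from the gene table by symbol. The symbol had to consist of PSMA to PSMG followed only by a number. They were 48 of the 60664 genes listed. Polysomal RNA, which comes from the heavy gradient fractions in which mRNAs loaded with several ribosomes are found, was sequenced from 3 samples of RNH1 KO and 3 samples of RNH1 WT K562 cells, to see which mRNAs are associated with ribosomes in cells without RNH1. K562 is a human erythroleukemia cell line, and RNH1 encodes the ribonuclease inhibitor. Both genotypes were grown in the same medium and treated with cycloheximide before lysis, so that ribosomes stayed on the mRNAs, and the KO was made with CRISPR/Cas9 in earlier work. The 3 samples of a genotype are described as independent replicates, but what was independent between them and the number of KO clones are not given in the sources used here, so p-values measure the spread between these 6 samples.

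The proteasome degrades proteins that carry ubiquitin chains. Its 20S core is a barrel of stacked rings, with outer rings of alpha subunits that guard the entrance and inner rings of beta subunits, some of which cut the substrate. The 19S regulatory particle caps the barrel, with a base that contains a ring of ATPases, which unfold the substrate, and a lid that removes the ubiquitin. Dedicated chaperones, which are not part of the finished enzyme, put core and base together, and in immune cells or after interferon treatment 3 catalytic beta subunits can be replaced by inducible ones.

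Between 34908202 and 46256928 reads per sample lay in genes. The values are normalized counts, that is, read counts that the authors divided by 1 size factor per sample, and 3 reads corresponded to 2.58 to 3.40 normalized counts. RNH1 itself had 1058, 1144 and 997 normalized counts in the KO samples, against 4566, 2857 and 1865 in the WT samples, and the change of KO over WT on the log2 scale came to -1.44 (SE, the standard error, 0.26, limma adjusted p = 0.000338). The labels call the cells lymphoblasts, but of 6 B lymphoid markers only 2 had a mean of at least 10 normalized counts and MS4A1 was at 0, while 11 of 12 erythroid markers had at least that level and HBE1 was at 0. The summed level of the erythroid markers was 93179 to 103918 in KO samples and 126662 to 128592 in WT samples, with 3 of the 12 markers lower. The T lymphoid markers summed to 736 to 930 in KO samples and 347 to 461 in WT samples, with 2 of 5 higher (CD3D and CD3G). Of 4 myeloid markers 2 had a mean of at least 10, and 0 were lower or higher. Of 5 epithelial and fibroblast markers 3 had that level. These 5 summed to 3308 to 3844 in KO samples and 3075 to 5444 in WT samples, mostly from EPCAM. CDH1 was higher, but reached a mean of 10 only through the KO samples (mean 31.4, against 3.48 in WT samples). The part of these shifts in the results on the proteasome was not tested. In such bulk samples fewer cells of a type and less RNA per cell cannot be told apart, and the level of an mRNA in polysomes depends both on its amount and on how much of it is translated. All values are relative, so that they say nothing of the total amount of polysomal RNA.

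A gene was called lower or higher when limma's test on log2(normalized count + 1) gave a Benjamini-Hochberg adjusted p under 0.1 over the 16652 genes whose mean over the 6 samples reached 10 normalized counts. Fold changes are on this log2 scale. Of the 48 proteasome genes, 46 were tested. PSMA8, an alpha subunit of male germ cells, and PSMB11, a beta subunit of the thymus, had no read in any sample. In RNH1 KO cells 18 of the 46 were lower and 3 were higher, and 25 did not pass. Without WT replicate 2 the test called 15 lower and 7 higher (26.2% and 27% of all genes). Among all genes tested 24.1% were lower and 24.1% were higher, so that 48.2% were called in either direction. The median log2 fold change was -0.26 over the 46 proteasome genes, 0.03 over all genes tested and -0.01 over the protein-coding genes tested. In 18 of the 46 genes the highest KO sample was below the lowest WT sample, and in 3 the lowest KO sample was above the highest WT sample, whereas the samples of the groups did not overlap in 51.1% of all genes tested (25.5% with KO below and 25.6% with KO above).

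The calls lay unevenly over the complex. Of the 14 expressed subunits of the 20S core, 11 were lower and 0 were higher, with a median log2 fold change of -0.77. All 4 chaperones of core assembly were lower, with a median of -0.91. Of the 17 subunits of the 19S particle with a PSM symbol, 2 were lower and 1 was higher, with a median of -0.01. Counts, shares and ratios of the 19S particle leave out SEM1 and ADRM1, subunits with other symbols. SEM1, of the lid, was lower (log2 fold change -1.96, limma adjusted p = 5.25e-06), and ADRM1 did not pass (0.06). When values were scaled to the library totals instead, the median of all genes moved to 0.35, and the medians were -0.45 for the core, -0.58 for its chaperones and 0.31 for the 19S particle, whose direction thus depended on the scaling. Under that scaling 11 proteasome genes were lower and 12 higher (14.5% and 39.7% of all genes), and under upper-quartile scaling 14 and 6 (19.5% and 30.4%). On the recovered reads edgeR called 19 lower and 3 higher (25.7% and 22.5% of all genes), as did DESeq2 (25.3% and 22.8%). With a correction for transcript length, given below, 4 subunits of the core were lower and 2 higher, with a median of -0.04. The 19S particle then had 2 lower and 4 higher, with a median of 0.08, and the core chaperones 2 lower, with a median of -0.60. Among all protein-coding genes 24% were then lower and 25.1% higher. Most of the contrast between core and 19S particle thus depended on transcript length. The difference between the particles was not tested as such, because the genes of a particle are not replicates.

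**Figure D1:**
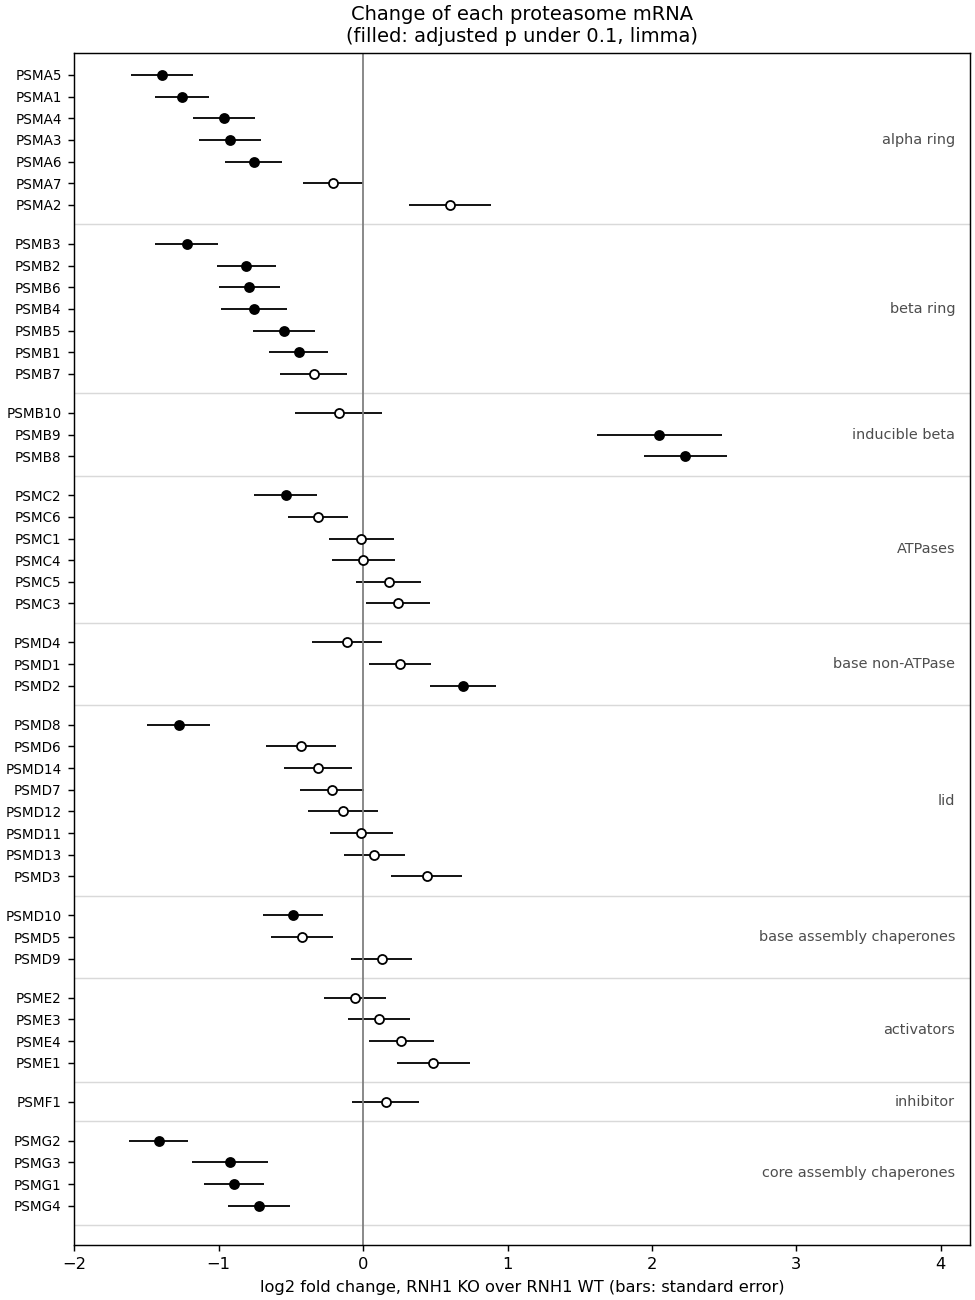
Log2 fold change of RNH1 KO over RNH1 WT (horizontal axis) for each of the 46 tested proteasome genes, grouped by part, with the standard error as a bar and filled points for an adjusted p under 0.1 from limma. Of the 14 subunits of the alpha and beta rings 11 points are filled and lie left of 0, PSMB8 and PSMB9 lie above 2, and most points of the ATPases, base and lid lie near 0.

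The promoter windows of RefSeq were searched for sequences that are known to bind regulators of proteasome genes. Stretches of 4 windows are shown, all from called genes whose window held the first of these motifs. The window of PSMG1, also a called gene, held this motif too and is not shown. The antioxidant response element, bound by NFE2L1 and NFE2L2 with a small MAF protein, has the core TGACNNNGC (N is any base). A window runs from 250 bases before to 50 bases after the start site of a gene, both strands were searched, and the match is in capitals below. The stretches are given 5′ to 3′ on the strand of the gene (RefSeq, GRCh38.p14). That of PSMB3 is the whole 250 bases before the start site (chr17:38752491-38752740, plus strand). The others are the match with 10 bases on either side, for PSMA4 at chr15:78540650-78540678 (plus strand), PSMG2 at chr18:12658689-12658717 (plus strand) and PSMB9 at chr6:32854034-32854062 (plus strand). The windows of PSMA5, PSMA1, PSMD8 and PSMB8, which had larger fold changes than some of the genes shown, held no match of this motif. None of the 4 matches shown overlapped a match of another motif searched.
PSMB3: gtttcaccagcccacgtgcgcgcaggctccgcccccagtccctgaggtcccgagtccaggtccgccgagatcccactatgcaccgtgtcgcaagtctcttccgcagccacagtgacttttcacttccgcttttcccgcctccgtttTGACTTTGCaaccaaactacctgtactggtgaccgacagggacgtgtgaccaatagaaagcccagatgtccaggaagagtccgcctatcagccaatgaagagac
PSMA4: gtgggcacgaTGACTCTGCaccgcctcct
PSMG2: cagtttcccgTGACCCCGCggccgctctg
PSMB9: gggcggggctGCCTCGTCActtgtctcgg
The matches begin at -104 (PSMB3), -126 (PSMA4), -39 (PSMG2) and -148 (PSMB9, on the other strand) from the start site. Of the 48 genes, 42 had a window, and 15 of these (35.7%) held TGACNNNGC, against 16.1% of the 27305 genes with a window. The 15 comprised 4 of 15 lower genes, 1 of 3 higher genes and 10 of 22 that did not pass. The CCAAT box (CCAAT) was found in 20 of 42 (47.6%, against 39.7% of all genes) and the core of the interferon-stimulated response element in 7 of 42 (16.7%, against 4.38%). The CCAAT box lay in 10 of 15 lower genes, 1 of 3 higher genes and 8 of 22 that did not pass. For the interferon-stimulated element these were 3 of 15, 1 of 3 and 3 of 22. The splits by call were not tested. All are matches of letters only and were not measured as sites.

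The alpha ring, which opens and closes the way into the core, was lower in 5 of its 7 expressed subunits. The lowest fold change was that of PSMA5, with 7731, 6292 and 7431 normalized counts in KO samples, against 20690, 21231 and 14803 in WT samples. KO over WT gave a log2 fold change of -1.39 (SE 0.21, limma adjusted p = 9.68e-05), and the groups did not overlap. The other 4 lower subunits were PSMA1 (-1.25), PSMA4 (-0.97), PSMA3 (-0.92) and PSMA6 (-0.76), each without overlap of the groups. PSMA7 did not pass, with 6381, 7757 and 8289 normalized counts in KO samples and 8843, 9943 and 7197 in WT samples (log2 fold change -0.21, limma adjusted p = 0.449). PSMA2 had the highest fold change of the ring, with 341, 328 and 238 normalized counts in KO samples and 159, 152 and 316 in WT samples. Its groups overlapped through WT replicate 3, and the log2 fold change of 0.60 did not pass (SE 0.28, limma adjusted p = 0.101).

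Some alpha subunits stood at levels far from those of the rest. Per kilobase of canonical transcript, PSMA2 had 211 ± 39.1 normalized counts in KO samples and 146 ± 64.8 in WT samples, PSMA6 had 380 ± 21.0 in KO and 643 ± 11.4 in WT, and PSMA1 had 701 ± 34.8 in KO and 1675 ± 120 in WT (SD, n = 3 each). The other 11 expressed subunits of the rings, which assemble in equal numbers with these, had 1711 to 16445 per kilobase in KO samples and 3357 to 22508 in WT samples. In GENCODE 44 the canonical transcripts of PSMA2, PSMA6 and PSMA1 share 100%, 81.4% and 67.0% of their bases with exons of another gene on the same strand, as do PSMB10 with 56.1% and PSMD9 with 28.8%. The sources used here do not say how reads in shared exons were counted, so the values of these 5 genes are uncertain. Without them, 16 of 41 proteasome genes were lower and 3 were higher, and 9 of 11 subunits of the core were lower with a median log2 fold change of -0.79.

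The beta ring contains the catalytic subunits PSMB6 (caspase-like activity), PSMB7 (trypsin-like activity) and PSMB5 (chymotrypsin-like activity). Of its 7 subunits 6 were lower. The structural subunit PSMB3 had the lowest fold change, with 7118, 6864 and 7213 normalized counts in KO samples, against 20773, 16706 and 12894 in WT samples. Its log2 fold change was -1.22 (SE 0.22, limma adjusted p = 0.000329). The KO samples of PSMB3 lay close together, and all were below the lowest WT sample.

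Of the catalytic subunits, PSMB6 had 5774, 5942 and 5981 normalized counts in KO samples, against 12755, 10301 and 8050 in WT samples (log2 fold change -0.79, SE 0.21, limma adjusted p = 0.00723). PSMB5 had 9592, 9021 and 9208 in KO samples, against 17412, 12422 and 11459 in WT samples (log2 fold change -0.55, SE 0.21, limma adjusted p = 0.0512). The groups did not overlap for PSMB6 or PSMB5. PSMB7 was at 10120, 10121 and 10831 in KO samples and at 16532, 14816 and 9213 in WT samples, and the groups overlapped through WT replicate 3 (log2 fold change -0.34, limma adjusted p = 0.253). The remaining lower subunits, PSMB2 (-0.81), PSMB4 (-0.76) and PSMB1 (-0.44), are structural. The adjusted p of PSMB1 was 0.0928, close to the threshold.

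**Figure D2:**
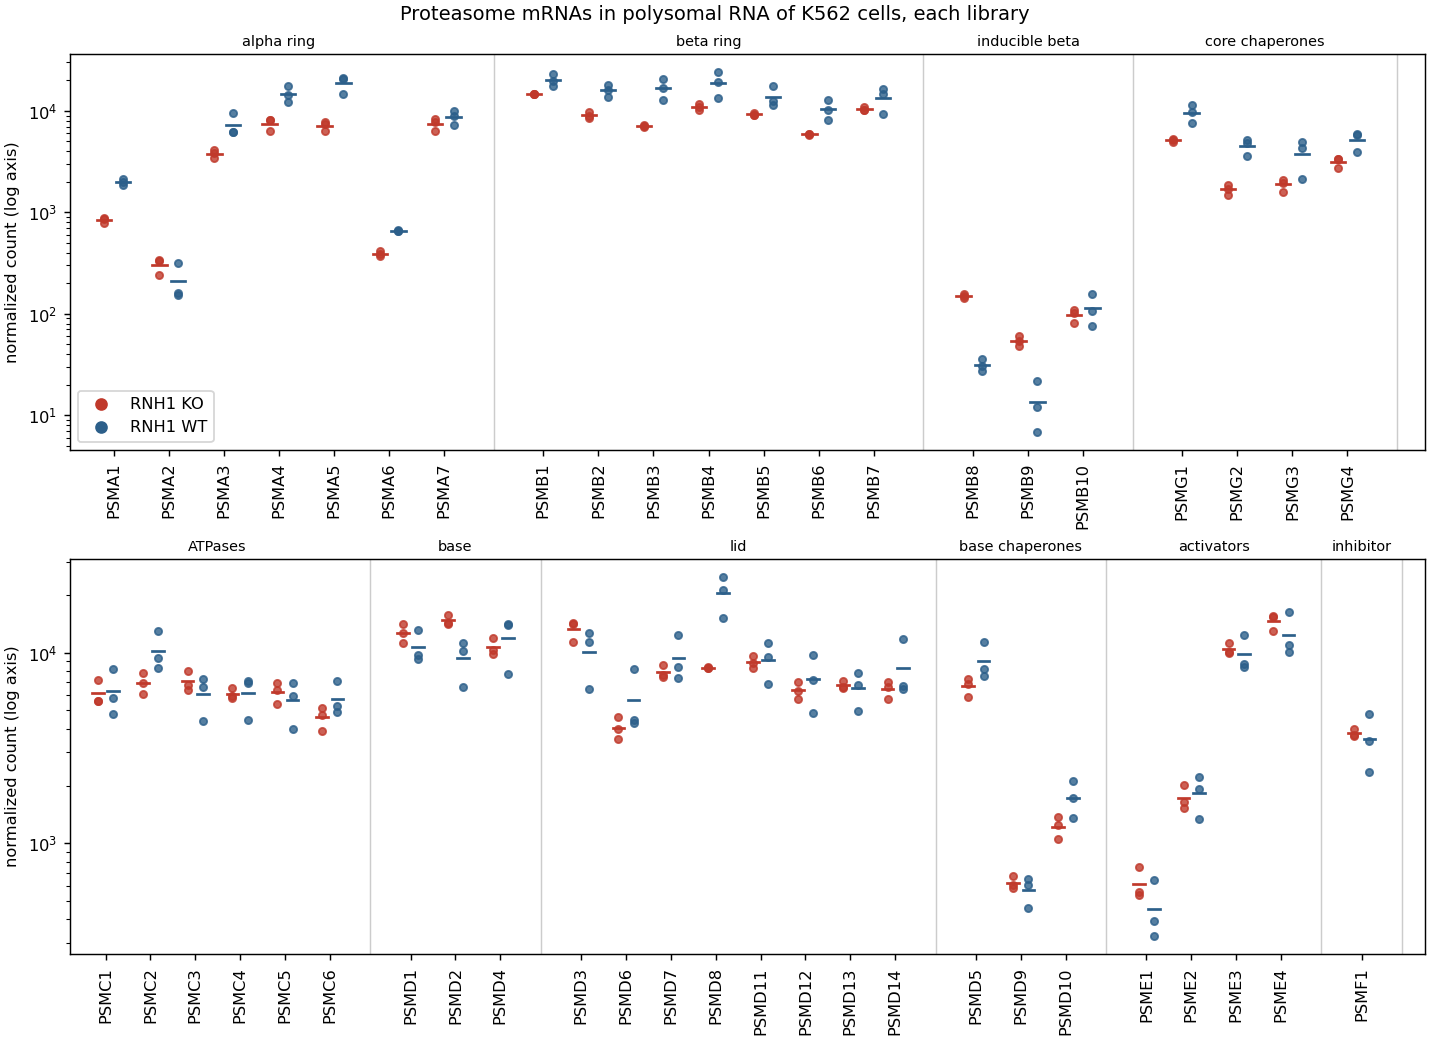
Normalized count of each tested proteasome gene (vertical log axis) in each of the 3 RNH1 KO samples (red, left of each pair) and 3 RNH1 WT samples (blue), with the mean as a line, grouped by part. For PSMA5, PSMB3, PSMD8 and PSMG2 the KO samples lie wholly below the WT samples, for PSMB8 and PSMB9 wholly above, and for most ATPases and lid subunits they overlap.

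Of the inducible catalytic subunits 2 were higher, while the constitutive subunits that they replace were lower. The calls of the constitutive subunits PSMB5 and PSMB6 were lost with a correction for transcript length, under which their log2 fold changes were 0.09 and 0.10 (limma adjusted p = 0.682 and 0.683), and PSMB5 lost its call in 9 of 17 alternatives. PSMB8, which replaces PSMB5, had 144, 156 and 148 normalized counts in KO samples, against 35.5, 30.8 and 27.2 in WT samples. Its log2 fold change was 2.23 (SE 0.29, limma adjusted p = 1.68e-05). PSMB9, which replaces PSMB6, had 59.98, 47.9 and 54.2 in KO samples, against 21.9, 11.9 and 6.80 in WT samples, with a log2 fold change of 2.05 (SE 0.43, limma adjusted p = 0.00137). In both, all KO samples lay above all WT samples. PSMB10, which replaces PSMB7, did not pass, with 81.2, 101 and 108 in KO samples and 157, 107 and 74.8 in WT samples (log2 fold change -0.17, SE 0.30, limma adjusted p = 0.685).

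The inducible subunits remained far below the constitutive ones in both genotypes. Per kilobase of canonical transcript, PSMB8 had 133 normalized counts in KO and 27.7 in WT samples, whereas PSMB5 had 8883 in KO and 13184 in WT samples. PSMB9 had 53.1 per kilobase in KO and 13.3 in WT samples, whereas PSMB6 had 7159 in KO and 12583 in WT samples. Taken within each sample, the log2 ratio of PSMB9 to PSMB6 was -6.57, -6.92 and -6.76 in KO samples and -9.12, -9.64 and -10.01 in WT samples, a difference of KO minus WT of 2.84. The log2 ratio of PSMB8 to PSMB5 was -6.05, -5.84 and -5.95 in KO samples and -8.90, -8.61 and -8.67 in WT samples, a difference of 2.78. Both differences had p = 0.1 (two-sided exact permutation test, n = 3 each; 0.15 when adjusted over the 3 ratios), the smallest p that 3 samples against 3 allow. That of PSMB10 to PSMB7 was -6.94, -6.63 and -6.64 in KO samples and -6.71, -7.09 and -6.93 in WT samples, and the difference of 0.17 lay within the spread of the samples (two-sided exact permutation test, p = 0.3, adjusted 0.3, n = 3 each).

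**Figure D3:**
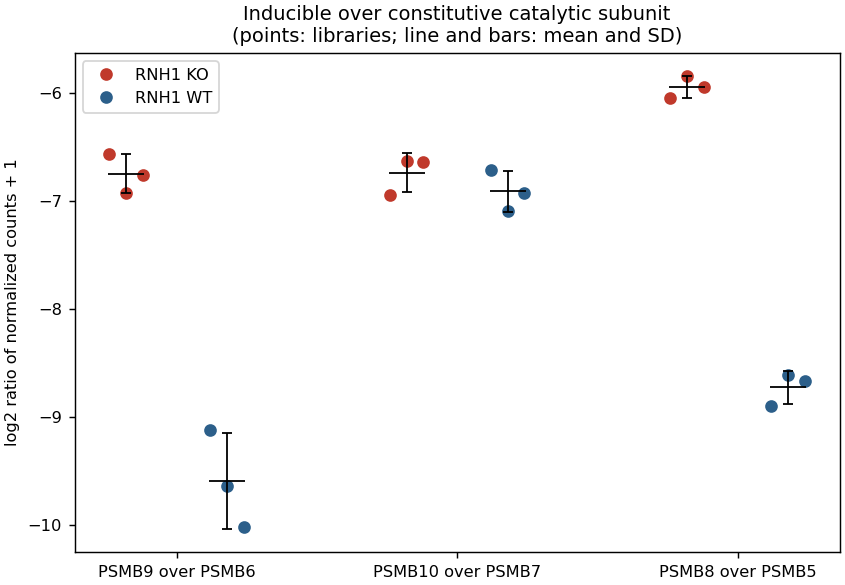
Log2 ratio of the normalized count + 1 of each inducible catalytic subunit to that of the constitutive subunit it replaces (vertical axis), in each RNH1 KO sample (red, left) and RNH1 WT sample (blue), with mean and SD. The KO samples of PSMB9 over PSMB6 (-6.92 to -6.57) and of PSMB8 over PSMB5 (-6.05 to -5.84) lie above all WT samples, and those of PSMB10 over PSMB7 overlap with them.

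PSMB8 and PSMB9 are neighbours on chromosome 6, in the class II region of the major histocompatibility complex, PSMB8 at 32840717 to 32844679 on the minus strand and PSMB9 at 32844136 to 32859851 on the plus strand (GRCh38, GENCODE 44). Their annotated exons share 139 bases on opposite strands, none of them in the canonical transcript of PSMB8 or PSMB9. TAP1, which encodes a subunit of the transporter that carries peptides into the endoplasmic reticulum, lies within the annotated span of PSMB9 on the minus strand and was looked up for this position. It had 169, 144 and 195 normalized counts in KO samples, against 35.5, 18.9 and 15.9 in WT samples (log2 fold change 2.87, SE 0.34, limma adjusted p = 6.5e-06). The libraries were made with a stranded kit, but the sources used here do not say whether the counting used the strand, so reads of overlapping genes on opposite strands may not have been kept apart.

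All 4 chaperones that assemble the core were lower. PSMG1 and PSMG2 form a dimer that gathers alpha subunits into a ring, and PSMG3 and PSMG4 form another one that acts on the same ring. PSMG2 had the lowest fold change of all 46 genes tested, with 1872, 1494 and 1679 normalized counts in KO samples, against 3554, 4857 and 5171 in WT samples (log2 fold change -1.42, SE 0.20, limma adjusted p = 5.04e-05). PSMG1 had 5110, 4940 and 5280 in KO samples, against 7620, 11536 and 9751 in WT samples (log2 fold change -0.89, SE 0.21, limma adjusted p = 0.00275). The groups did not overlap for PSMG1 or PSMG2.

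PSMG3 had 1952, 2100 and 1589 normalized counts in KO samples, against 4294, 2114 and 4905 in WT samples (log2 fold change -0.92, SE 0.26, limma adjusted p = 0.0102). WT replicate 2 of PSMG3 was only just above the highest KO sample, while the other WT samples were well above it. PSMG4 had 3318, 3335 and 2709 in KO samples, against 5926, 3921 and 5777 in WT samples (log2 fold change -0.72, SE 0.21, limma adjusted p = 0.0123), again without overlap and with WT replicate 2 the lowest of the WT samples.

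In the 19S particle most fold changes were small. Of the 6 ATPases, which form the ring that threads the substrate into the core, 1 was lower. PSMC2 had 6954, 6057 and 7798 normalized counts in KO samples, against 9335, 12949 and 8262 in WT samples (log2 fold change -0.53, SE 0.22, limma adjusted p = 0.061). PSMC3 had the highest fold change of the ring, with 6384, 6783 and 8013 in KO samples and 7233, 6642 and 4362 in WT samples, and did not pass (log2 fold change 0.24, limma adjusted p = 0.406). PSMC1, PSMC4, PSMC5 and PSMC6 lay between -0.31 and 0.18 on the log2 scale with overlapping groups. The canonical transcript of PSMC1 shares 83.2% of its bases with exons of NRDE2 on the opposite strand, and NRDE2 was higher in KO samples (log2 fold change 0.53, limma adjusted p = 0.0302).

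Of the 3 other base subunits with a PSM symbol, PSMD2 was higher, against the direction of most called members. PSMD2 is the scaffold that binds ubiquitin shuttles and the deubiquitinase USP14. It had 14225, 14156 and 15814 normalized counts in KO samples, against 10250, 11182 and 6587 in WT samples (log2 fold change 0.69, SE 0.23, limma adjusted p = 0.022). PSMD1, the other large scaffold of the base, had 12637, 11290 and 14045 in KO samples and 9734, 13201 and 9213 in WT samples (log2 fold change 0.25, limma adjusted p = 0.363). PSMD4, a ubiquitin receptor, had 9877, 10291 and 11941 in KO samples and 13975, 14179 and 7682 in WT samples (log2 fold change -0.11, limma adjusted p = 0.749). The groups overlapped for PSMD1 and PSMD4, and not for PSMD2.

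Of the 8 lid subunits with a PSM symbol, PSMD8 was lower and the other 7 did not pass. SEM1, also of the lid, is described with the other pathway genes. PSMD8 had 8256, 8290 and 8375 normalized counts in KO samples, against 25050, 21405 and 15258 in WT samples. Its log2 fold change was -1.28 (SE 0.22, limma adjusted p = 0.000257), and the groups did not overlap. At the other end PSMD3 had 11423, 14112 and 14339 in KO samples and 11297, 12619 and 6472 in WT samples, with overlapping groups (log2 fold change 0.44, limma adjusted p = 0.165). The log2 fold changes of PSMD6, PSMD7, PSMD11, PSMD12, PSMD13 and PSMD14, the last of which is the deubiquitinase of the lid, ranged from -0.43 to 0.08. WT replicate 2 was the highest of all samples for each of these 6 genes. The canonical transcript of PSMD7 shares 51.6% of its bases with exons of a noncoding gene on the opposite strand. That gene was higher in KO samples (log2 fold change 1.29, limma adjusted p = 0.000166).

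The chaperones of base assembly differed from those of the core. PSMD10 (gankyrin) had 1241, 1057 and 1374 normalized counts in KO samples, against 1732, 2116 and 1352 in WT samples, and was called lower although KO replicate 3 was above WT replicate 3 (log2 fold change -0.49, SE 0.21, limma adjusted p = 0.0743). PSMD5 had 7257, 5870 and 6833 in KO samples and 8253, 11308 and 7543 in WT samples, without overlap, and did not pass (log2 fold change -0.42, limma adjusted p = 0.123). PSMD9 had 673, 604 and 580 in KO samples and 607, 457 and 651 in WT samples (log2 fold change 0.13, limma adjusted p = 0.655).

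None of the 4 activators, which can cap the core in place of the 19S particle, passed the test. PSME1 and PSME2 form the interferon-inducible PA28 alpha-beta ring. PSME1 had 555, 533 and 756 normalized counts in KO samples and 390, 639 and 325 in WT samples (log2 fold change 0.49, limma adjusted p = 0.135). PSME2 had 1651, 1542 and 2016 in KO samples and 1930, 2231 and 1343 in WT samples (log2 fold change -0.06, limma adjusted p = 0.854). PSME3, the nuclear PA28 gamma, had 9992, 10108 and 11185 in KO samples and 8728, 12311 and 8368 in WT samples (log2 fold change 0.11, limma adjusted p = 0.71). The groups overlapped for each of these 3.

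PSME4 (PA200), a large monomeric activator, had 15385, 13018 and 15518 normalized counts in KO samples and 10072, 16278 and 10939 in WT samples (log2 fold change 0.26, limma adjusted p = 0.365). The inhibitor PSMF1 (PI31), which binds the core, had 3637, 3696 and 3986 in KO samples and 3458, 4738 and 2354 in WT samples (log2 fold change 0.16, limma adjusted p = 0.614). The groups overlapped for both. Within samples the log2 ratio of PSME3 to PSME1 averaged 4.099 ± 0.19 in KO and 4.48 ± 0.21 in WT samples, a difference of -0.38 (SD, n = 3 each; two-sided exact permutation test, p = 0.1, adjusted 0.2 over 2 ratios). That of PSME4 to PSME1 averaged 4.59 ± 0.22 in KO and 4.81 ± 0.23 in WT samples, a difference of -0.22 (SD, n = 3 each; two-sided exact permutation test, p = 0.4, adjusted 0.4).

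The parts were also compared by the share of all reads in genes that they took. All 48 genes together took 0.776%, 0.760% and 0.781% of the reads in KO samples, against 0.794%, 0.966% and 0.680% in WT samples, so that the KO samples lay within the range of the WT samples. Of the reads outside the 100 genes with the highest mean they took 0.905%, 0.881% and 0.906% in KO samples, against 1.12%, 1.21% and 0.936% in WT samples, and there every KO sample lay below every WT sample. The 20S rings took 0.263%, 0.258% and 0.253% in KO samples, against 0.364%, 0.394% and 0.298% in WT samples. The 19S subunits took 0.365%, 0.365% and 0.388% in KO samples, against 0.312%, 0.409% and 0.252% in WT samples. The share of the rings was thus below that of every WT sample in every KO sample, and that of the 19S subunits overlapped.

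The ratio of reads of the 20S rings to reads of the 19S subunits does not depend on the scaling of a library. It was 0.721, 0.707 and 0.653 in KO samples, against 1.16, 0.963 and 1.18 in WT samples, or 0.69 ± 0.04 in KO and 1.10 ± 0.12 in WT (SD, n = 3 each), with no overlap. The 4 core chaperones took 0.0322% ± 0.0027 of the reads in KO and 0.0505% ± 0.0062 in WT samples (SD, n = 3 each). The ratio and the shares are sums over genes chosen as a list and carry no test.

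**Figure D4:**
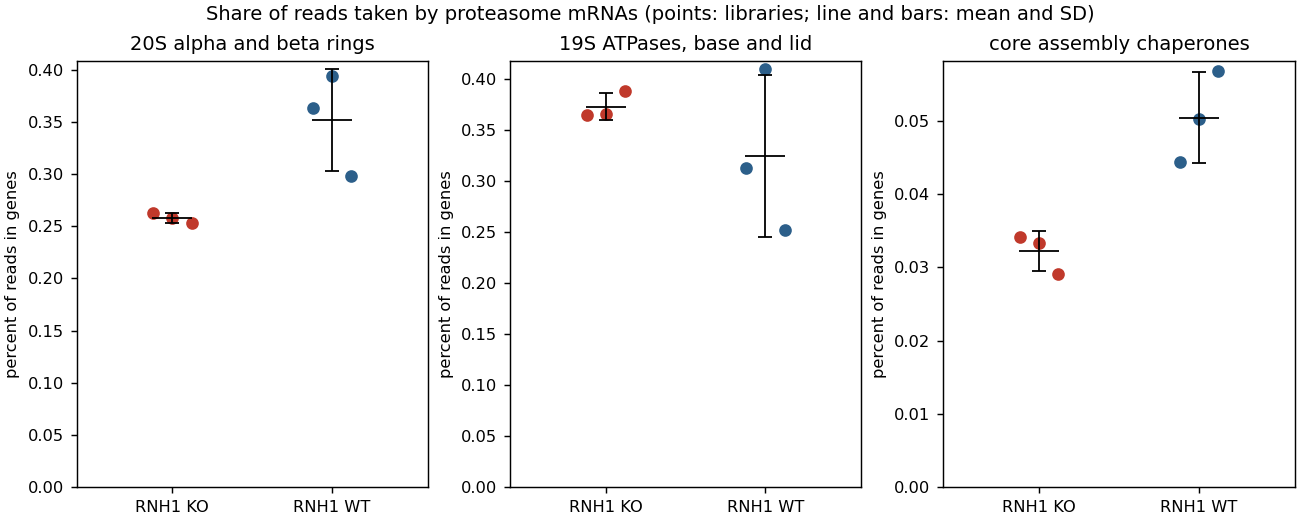
Percent of all reads in genes (vertical axis, from 0) taken by the 20S alpha and beta rings, the 19S ATPases, base and lid, and the core assembly chaperones, in each RNH1 KO sample (red, left) and RNH1 WT sample (blue), with mean and SD. The KO samples lie at 0.253% to 0.263% for the rings, below all WT samples (0.298% to 0.394%), and overlap with the WT samples for the 19S subunits.

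Proteasome mRNAs are short, and short mRNAs were lower as a class in these data. The canonical transcripts of the 46 tested genes had a median length of 1494 nucleotides, those of the 20S rings of 1003.5, those of the core chaperones of 1249 and those of the 19S subunits of 1754, against 3240 for all protein-coding genes tested. In the shortest quintile of protein-coding genes (up to 1761 nucleotides) the median log2 fold change was -0.48 and 48.2% were lower, whereas in the longest quintile the median was 0.31 and 13.7% were lower. The shortest quintile held 30 of the 46 proteasome genes, whose median was -0.39 with 14 lower and 2 higher. Across genes, which are not independent replicates and share their libraries, log2 fold change and log10 length had a Pearson r of 0.30 and a Spearman rho of 0.33 for 12083 protein-coding genes, and of 0.08 and 0.22 for the 46 proteasome genes.

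When the trend of the fold change with transcript length was removed in each sample, the counts changed: 9 proteasome genes were lower and 10 were higher, among all protein-coding genes 24% and 25.1%. The median of the 20S rings was then -0.04 with 4 lower and 2 higher, that of the 19S subunits 0.08 with 2 lower and 4 higher, and that of the core chaperones -0.60 with 2 lower. PSMA5 (-1.43), PSMA4 (-1.05), PSMB2 (-0.90), PSMA1 (-0.73), PSMD8 (-0.94), PSMG2 (-0.80), PSMG1 (-0.65) and PSMC2 (-0.50) were lower also after this correction, and PSMD5 (-0.45) became so. Beside the 3 genes called higher before, PSMA2, PSMA7, PSMC3, PSMC5, PSMD3, PSME1 and PSME2 then passed as higher, with log2 fold changes of 0.51 to 1.20. PSMA5, PSMA4 and PSMB2 have canonical transcripts of 3815, 4378 and 4426 nucleotides, the longest of the rings. Per kilobase of these they had 1875, 1711 and 2053 normalized counts in KO samples, the lowest of the ring subunits without shared exons. Which transcripts the cells expressed was not tested, so their corrected values hold only if the canonical lengths apply. PSMB3, with the shortest canonical transcript of the rings (762 nucleotides), had a log2 fold change of -0.24 after the correction and did not pass (limma adjusted p = 0.339). PSMB8 (2.80) and PSMB9 (2.72) were higher by more than before the correction, and PSMD2 (0.70) by as much.

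**Figure D5:**
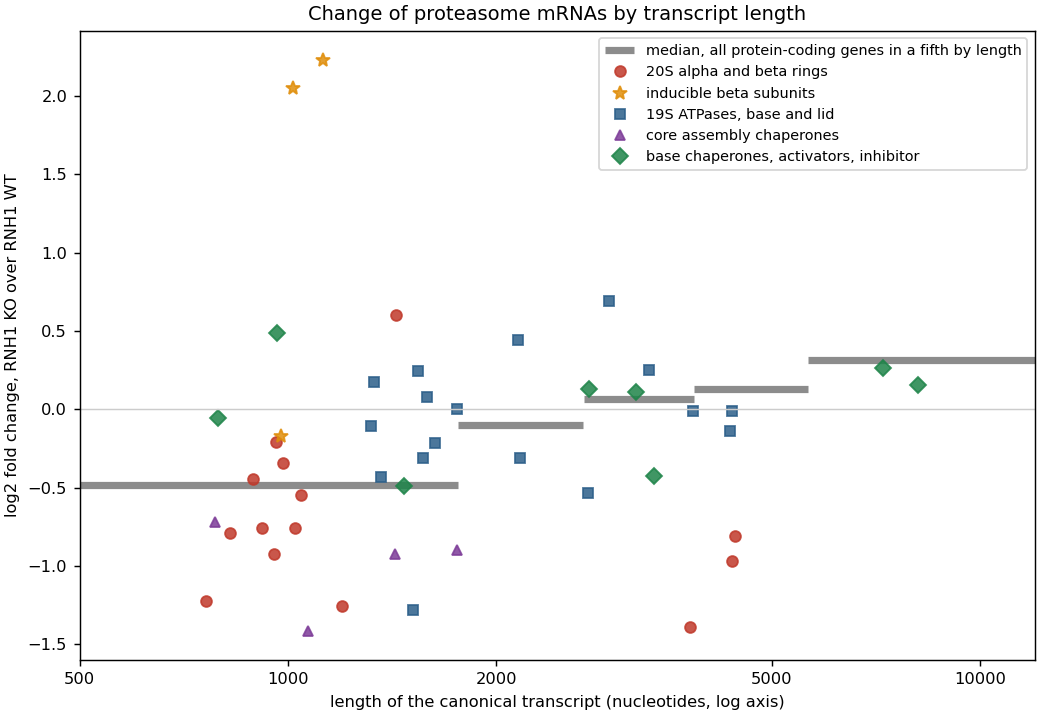
Log2 fold change of RNH1 KO over RNH1 WT (vertical axis) against the length of the canonical transcript in nucleotides (horizontal log axis) for the 46 tested proteasome genes, coloured by part, with grey bars for the median of all protein-coding genes in each quintile by length, the outermost bars ending at the edges of the plot. The grey bars run from -0.48 for the shortest to 0.31 for the longest genes, and 30 of the 46 genes lie over the shortest quintile.

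Of 32 other genes of the pathway, chosen by function, 5 were lower and 8 were higher, against 24.1% lower and 24.1% higher among all genes, so that the number higher was near that share. Without WT replicate 2 these counts were 3 and 13, without KO replicate 3 they were 3 and 5, and without KO replicate 1 or 2 the number lower was 3. Among them are a subunit and an assembly factor with larger falls than any PSM gene. SEM1, the smallest subunit of the lid, had 2275, 2513 and 2514 normalized counts in KO samples, against 11599, 6557 and 11157 in WT samples (log2 fold change -1.96, SE 0.23, limma adjusted p = 5.25e-06). POMP, the maturation factor that brings the beta subunits onto the alpha ring and is the first substrate of the finished core, had 3456, 2761 and 3155 in KO samples, against 10318, 10027 and 12497 in WT samples (log2 fold change -1.81, SE 0.20, limma adjusted p = 3.20e-06). After the length correction SEM1, with a canonical transcript of 458 nucleotides, was at -0.41 (limma adjusted p = 0.0463) and POMP, with 1338 nucleotides, at -1.38 (limma adjusted p = 0.000163). The ubiquitin receptor ADRM1 (0.06) and the base assembly factor PAAF1 (0.18) did not pass.

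Of 7 enzymes and factors that bind the proteasome, TXNL1, a redox protein on the regulatory particle, was lower (log2 fold change -0.93, limma adjusted p = 0.00217), as was ZFAND5 (-0.51), an activator of the 26S proteasome. ECPAS (0.53), which holds core and regulatory particle together, and AKIRIN2 (0.43), needed for the import of proteasomes into the nucleus, were higher. After the length correction ECPAS did not pass (0.28, limma adjusted p = 0.183), while AKIRIN2 did (0.63, limma adjusted p = 0.00962). Of 6 ubiquitin shuttles only RAD23B (-0.48) was called, with overlapping groups (limma adjusted p = 0.0949). Of the 5 genes of the segregase VCP and its cofactors, 3 were higher, namely VCP (0.73), NPLOC4 (0.73) and NSFL1C (0.76).

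Among 7 genes of transcriptional control, NFE2L1, the transcription factor that raises proteasome genes when the proteasome is impaired, had 6794, 7720 and 9001 normalized counts in KO samples, against 4278, 5007 and 3735 in WT samples (log2 fold change 0.85, SE 0.20, limma adjusted p = 0.00343). MAFG, one of its small MAF partners, was also higher (0.65, limma adjusted p = 0.0132), and the groups did not overlap for either gene. NFE2L2, NGLY1, MAFF, MAFK and SYVN1 did not pass, with log2 fold changes from -0.21 to 0.34. UBA1, the main enzyme that activates ubiquitin, was higher (0.72, limma adjusted p = 0.0222), and the ubiquitin gene UBB (-0.41) did not pass.

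Rows named after proteasome genes that encode no subunit were mostly silent. Of 42 pseudogenes 33 had no read and 2 were tested. PSMC2P1 was called higher, at 8.31, 11.2 and 36.2 normalized counts in KO samples, against 4.17, 0.995 and 5.67 in WT samples (limma adjusted p = 0.029). Its KO replicate 3 stood apart from the other samples, and WT replicate 2 lay below the value of 3 reads (2.98). It reached the filter only through the KO samples (mean 18.6, against 3.61 in WT samples), so no difference is drawn from this call. PSMC1P1 did not pass. Of 7 antisense and divergent genes 4 were tested and 0 were called by limma. The antisense gene PSMB8-AS1 had 3.69, 2.04 and 5.17 normalized counts in KO samples and 0 in each WT sample, and was not tested, since its mean was under 10.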

How the data were processed

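Polysomal RNA-seq of 6 K562 samples (3 RNH1 KO, 3 RNH1 WT, assigned by title) was analyzed. Per the submitters' processing notes, reads were checked with FastQC 0.11.9, and mapping to GRCh38 (HISAT2 2.2.1), counting (featureCounts 2.0.1) and normalization (DESeq2 1.36.0) followed. The deposited signal was used, for which the authors had divided the gene counts of a sample by its DESeq2 size factor. The deposited table also holds means per genotype, log2 fold changes, scores of a test and p-values of the authors' own comparison, which were not used. Each column of sample values had its sample, and 0 were unmapped. Within a tolerance of 1e-06, the values were multiples of that of 1 read, which gave back 34908202 to 46256928 reads per sample. Floors of 3 reads cover counting error only.

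The test was limma 3.58.1 (R 4.3.3) on log2(value + 1) for the 16652 of 60664 genes with a mean of 10 or more, with a mean-variance trend and robust shrinkage, and no term other than genotype. Count tests on the recovered reads used DESeq2 1.42.0 and the quasi-likelihood test of edgeR 4.0.16. Other alternatives were pseudocounts, filters, scalings, leaving out each sample, a replicate block, and removing from each sample a lowess trend of the values on log transcript length (span 0.3). Only limma at its main setting, edgeR and DESeq2 were run on simulated data, and the other alternatives, among them the length correction, were not. Ratios within a sample were compared by exact permutation. Lengths, coordinates and exon overlaps come from GENCODE 44, promoter windows from RefSeq, and sums used Python 3.11.15.

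Every gene is accounted for by its part. Values of each sample are given for the lowest and highest fold change of a part, for every gene of parts of 4 or fewer, for inducible subunits and those they replace, and for calls against the direction of their part. Of the other pathway genes up to 4 called genes per group with the largest absolute change are named. ADRM1, PAAF1, the uncalled genes of transcriptional control, UBB, TAP1, NRDE2, PSMB8-AS1 and the noncoding gene that overlaps PSMD7 fall outside this rule. They were chosen with their values known. The genes, lists and tests were chosen with earlier results of these data known. Of the 32 other pathway genes 1 enters the counts and is not reported here by name. The total RNA, protein and other cell line data of the study were not analyzed here.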

Additional observations from a re-analysis of the deposited data

How the results depend on the processing

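The call of lower for PSMA1, PSMA4, PSMA5, PSMB2, PSMD8, PSMG1 and PSMG2 (7 of the 18) and the 3 calls of higher were kept in every alternative in which the gene was tested. PSMB8 and PSMB9 fell under the filter at a mean of 100 normalized counts, where 18 genes were lower and 2 higher. Library total scaling moved the median of all genes to 0.35 and upper-quartile scaling to 0.17, from 0.03. Under total scaling 11 proteasome genes were lower and 12 higher, while 14.5% of all genes were lower and 39.7% higher. Under upper-quartile scaling 6 were higher and 14 lower, with 19.5% of all genes lower and 30.4% higher. With the transcript length correction, without and with the replicate block, 9 were lower and 10 higher (with the block, 19.8% and 21% of protein-coding genes), and among the genes called before or after the correction the log2 fold change turned to 0.51 for PSMA7, 0.36 for PSMB1, 0.014 for PSMB4, 0.0933 for PSMB5, 0.10 for PSMB6, 0.88 for PSME2 and 0.23 for PSMG4. Another 6 genes, called neither before nor after, also changed sign. The cause was not tested. Leaving out 1 sample gave 14 to 21 lower and 3 to 7 higher genes, the 7 without WT replicate 2. Of the 32 other pathway genes, 3 were lower and 8 higher with upper-quartile scaling, 3 lower and 18 higher with total scaling, and 3 to 7 lower and 5 to 13 higher when 1 sample was left out (7 lower without WT replicate 1, 5 higher without KO replicate 3, 13 without WT replicate 2). By edgeR and by DESeq2, 19 proteasome genes were lower and 3 higher. Leaving out the 5 genes that share exons, an alternative chosen after seeing the data, gave 16 lower and 3 higher.

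Samples of the same number in both genotypes did not deviate together (correlations of -0.16, -0.19 and -0.27). Pairs of unlike number had correlations from -0.095 (KO1 and WT2) to 0.28 (KO1 and WT3). Deviations from the mean of 3 samples are tied to each other, so these values cannot tell whether the samples were run as pairs. With a replicate block 14 proteasome genes were lower and 3 higher (19.9% and 19.5% of all genes), and 3 other pathway genes were lower. PSMB8-AS1, with a mean under 10 normalized counts, was left out by the filter, and no statement on its difference rests on a test.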
